A study of Mus musculus with 7 samples.

Results

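The high-affinity IgE receptor and the molecules that mast cells and basophils carry with it were followed through 8 genes: the receptor chains Fcer1a, Ms4a2 and Fcer1g, the surface receptors Cd200r3 and Il1rl1, the mediator genes Hdc and Il4, and the solute carrier Slc45a3. They were found by matching the RefSeq accession of each array probe to these symbols. All 8 genes were represented, by 11 of the 55681 probes, and all 8 were among the 14539 genes tested. Fcer1g, Fcer1a, Il1rl1 and Slc45a3 lie on chromosome 1, Hdc on chromosome 2, Il4 on chromosome 11, Cd200r3 on chromosome 16 and Ms4a2 on chromosome 19.

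The samples were 3 arrays labelled Gata2 knockout and 4 control arrays of mouse dendritic cells. The cells of the arrays labelled knockout descended from common myeloid progenitors of Gata2(f/f)/ER-Cre mice, and those of the control arrays from progenitors of Gata2(f/f) mice without the Cre, all of the C57BL/6 background and CD45.2+. Mice of both genotypes carried the floxed Gata2 allele and were given tamoxifen between day 1 and day 10, and progenitors were sorted between day 20 and day 22. Progenitors of both groups were then grown with FLT3 ligand at 200 ng/ml on bone marrow feeder cells of SJL (CD45.1+) mice, with RNA amplified before labelling. The ages of the mice, the promoter of the Cre, the separation of dendritic cells from feeder cells and the animals behind each replicate are not stated in the labels. P-values therefore measure only the spread between these arrays.

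The IgE receptor is built from an alpha chain that binds IgE (Fcer1a), a beta chain that amplifies the signal (Ms4a2) and a pair of gamma chains that carry the activation motif read by the kinase Syk (Fcer1g). When antigen cross-links bound IgE, mast cells and basophils release histamine, made by the enzyme of Hdc, and produce cytokines such as interleukin 4. The gamma chain is shared with several IgG receptors and C-type lectins, so that macrophages, dendritic cells and natural killer cells also make it, while the beta chain is largely a mast cell and basophil gene. In mice, GATA2 and the related GATA1 are known as transcription factors of mast cells and basophils, and GATA factors bind variants of a short motif with GATA at its centre.

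The 250 bases before the start of the gene are printed for Fcer1a, Ms4a2 and Cd200r3, surface receptor genes that were lower in the arrays labelled knockout, and for Fcer1g, a gene with overlapping groups. One of the windows of Il1rl1 is shown too, the one with the most motif matches. They are RefSeq sequences on assembly GRCm38.p6, written 5′ to 3′ on the strand of the gene. Both strands were searched for the motif AGATAA and its variants, spelt as AGATAG, then as TGATAA, and lastly as TGATAG. Capitals mark each match, and a match on the opposite strand appears as its reverse complement. The windows are Fcer1a at chr1:173227230-173227479 on the minus strand, Ms4a2 at chr19:11623720-11623969 on the minus strand, Cd200r3 at chr16:44943428-44943677 on the plus strand, Fcer1g at chr1:171234350-171234599 on the minus strand and Il1rl1 at chr1:40429320-40429569 on the plus strand.
Fcer1a: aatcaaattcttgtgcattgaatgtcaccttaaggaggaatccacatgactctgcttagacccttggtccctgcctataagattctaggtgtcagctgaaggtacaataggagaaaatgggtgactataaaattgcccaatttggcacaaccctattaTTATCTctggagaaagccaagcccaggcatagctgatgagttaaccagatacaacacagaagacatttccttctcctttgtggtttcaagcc
Ms4a2: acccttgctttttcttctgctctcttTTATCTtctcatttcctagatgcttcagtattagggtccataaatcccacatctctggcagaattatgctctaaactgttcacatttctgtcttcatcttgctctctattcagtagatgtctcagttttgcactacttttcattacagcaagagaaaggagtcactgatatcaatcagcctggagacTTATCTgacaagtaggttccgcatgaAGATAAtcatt
Cd200r3: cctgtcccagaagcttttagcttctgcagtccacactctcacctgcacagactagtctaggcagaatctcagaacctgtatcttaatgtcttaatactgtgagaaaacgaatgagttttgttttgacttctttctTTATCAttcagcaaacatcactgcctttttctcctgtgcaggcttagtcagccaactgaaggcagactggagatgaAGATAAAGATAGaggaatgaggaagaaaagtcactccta
Fcer1g: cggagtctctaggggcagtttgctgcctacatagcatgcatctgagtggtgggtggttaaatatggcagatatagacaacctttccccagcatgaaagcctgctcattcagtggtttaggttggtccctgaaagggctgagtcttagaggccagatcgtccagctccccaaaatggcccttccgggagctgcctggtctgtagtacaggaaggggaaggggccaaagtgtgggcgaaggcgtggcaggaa
Il1rl1: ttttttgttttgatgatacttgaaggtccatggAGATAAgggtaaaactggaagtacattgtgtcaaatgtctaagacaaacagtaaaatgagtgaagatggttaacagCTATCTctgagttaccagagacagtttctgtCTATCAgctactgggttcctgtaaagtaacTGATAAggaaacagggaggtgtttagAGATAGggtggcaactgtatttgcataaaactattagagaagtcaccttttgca

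The Fcer1a window held 1 match, 92 to 87 bases before the start. The Ms4a2 window held 3 matches, the nearest of them 11 to 6 bases before the start. The Cd200r3 window also held 3 matches, 2 of which adjoin without overlapping, and the Il1rl1 window held 5. No match was found in the Fcer1g window, which says only that these letters are not in it. Il1rl1, with the most matches, did not pass the test below. Slc45a3, a gene with overlapping groups, had 1 window with 1 match and another with 0. The same was so for Il4, which was lower. The window of Hdc, also lower, held 1 match. The 8 genes had 11 windows in the table, since Il4, Il1rl1 and Slc45a3 have 2 each, and 8 of the 11 (72.7%) held at least 1 match. Among all genes of that RefSeq table, 26.5% of 32851 windows held one, and 19.3% of the 14653 windows of tested genes. A match is a description of the letters and not a measured binding site.

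All values below are log2 processed signal relative to the 75th percentile of the same array, so that 0 is the brightness below which 75% of the gene spots lie. The share of spots brighter than the background limit was 61.5% to 67.4% in the arrays labelled knockout and 54.1% to 56.9% in the controls. The dimmest single spot that still counted as well above background ranged from -6.91 to -6.21 in the arrays labelled knockout, and from -5.59 to -5.32 in the controls. Values under these floors are not measured levels. Each group lay in a row of its own on 1 slide, so slide row, the Cre and the group cannot be told apart. In the arrays labelled knockout the single Gata2 probe averaged 2.99 ± 0.06 (SD, n = 3), against 0.17 ± 0.29 (SD, n = 4) in the controls, the opposite of what the label says if the probe reads deleted sequence. Where the probe lies relative to the deletion is not stated in the labels or files, so each direction below follows the labels. All 12 dendritic cell marker genes, Itgax, Flt3 and Zbtb46 among them, were well above background on all 7 arrays, and none of them passed the test.

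Transcripts of the alpha and beta chains of the IgE receptor, of Cd200r3, of histidine decarboxylase and of interleukin 4 were all lower in the arrays labelled knockout, while the gamma chain was bright in both groups and its values overlapped. With limma and Benjamini-Hochberg adjustment over all 14539 genes, at a threshold of 0.05, 5 of the 8 genes were lower and 0 higher. Among all genes tested 1.39% were lower and 1.51% higher. All 3 arrays labelled knockout lay below all 4 controls for 6 of the 8 genes, which was so for 8.03% of all genes. The 8 genes were chosen with earlier results of these data known. Setting them beside all genes is therefore a description and not a test. Ms4a2 and Cd200r3 entered the test only through the control arrays, where they were bright enough to be kept. Their values in the arrays labelled knockout lay under the floors, and neither passed with a floor common to all arrays. Background also differed: the median of the negative control spots was -9.06 to -8.31 in the arrays labelled knockout and -7.70 to -7.39 in the controls. Probes at background can therefore lie lower in the arrays labelled knockout. In such cultures of mixed origin, fewer cells of a type and less RNA per cell cannot be told apart.

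**Figure D1:**
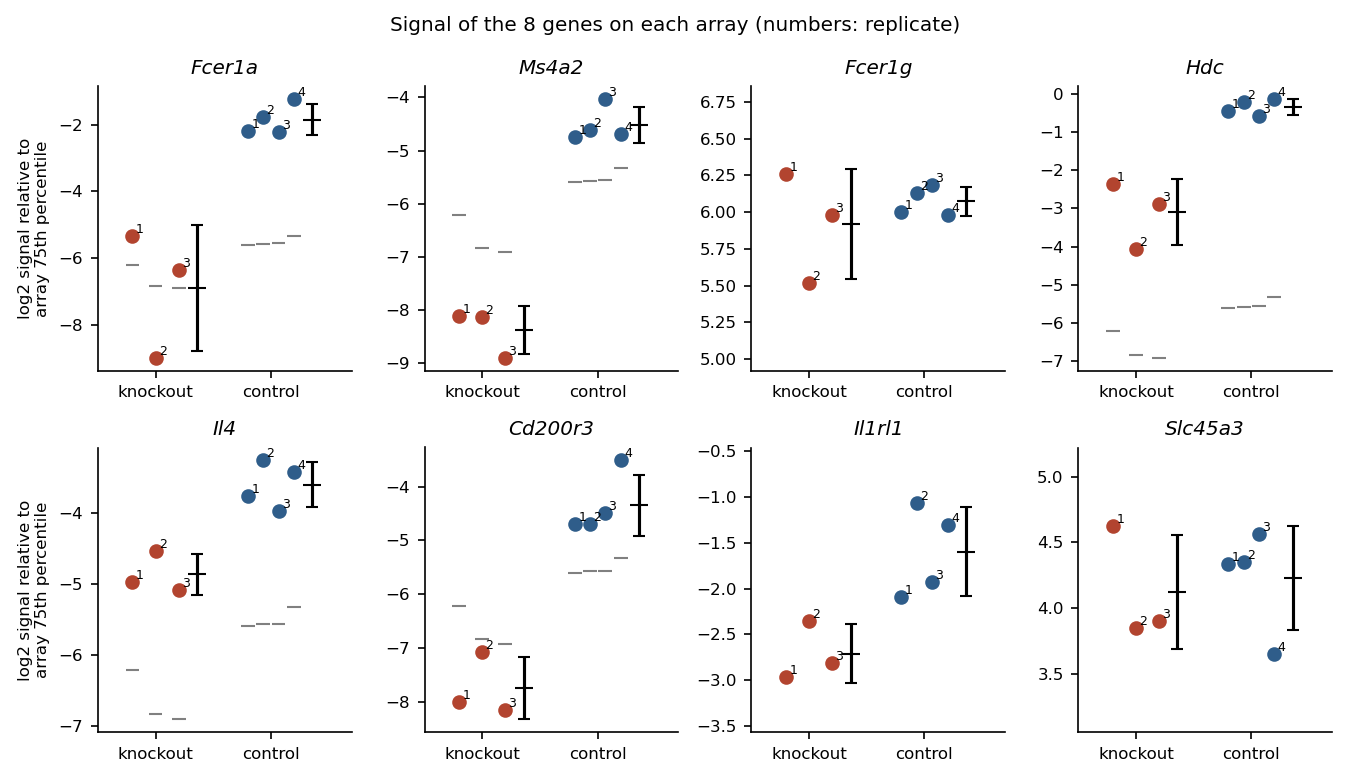
Log2 processed signal relative to the array's 75th percentile for each of the 8 genes on each array (points), with group means as bars and the arrays labelled knockout left of the controls. The groups lie apart for Fcer1a, Ms4a2, Hdc, Il4, Cd200r3 and Il1rl1, and overlap for Fcer1g and Slc45a3.

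Fcer1a encodes the alpha chain, the part of the receptor that holds IgE. Its probe read -5.35, -8.99 and -6.34 in the arrays labelled knockout, against -2.19, -1.75, -2.21 and -1.23 in the controls. The groups lay 3.15 log2 units apart at their nearest arrays. Replicate 2 labelled knockout was far below the others of its group, and it was the only array on which the probe was not well above background. As deposited, the processed signal of this probe was 81.5, 7.5 and 45.5 in the arrays labelled knockout, against 722, 921, 579 and 1318 in the controls. Fcer1a in the arrays labelled knockout averaged -6.90 ± 1.88 (SD, n = 3), against -1.84 ± 0.46 (SD, n = 4) in the controls. The log2 fold change was -5.05 (SE 0.75, 95% interval -6.79 to -3.32, limma adjusted p = 0.00995), which is 33.2-fold lower. With dim values raised to each array's own floor the alpha chain was 20.1-fold lower (limma adjusted p = 0.000253), and with 1 floor common to all arrays 11.2-fold lower (limma adjusted p = 0.00167). The size depended on replicates 1 and 2 labelled knockout: the log2 fold change was -5.82 without replicate 1 and -4.0 without replicate 2.

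Ms4a2 encodes the beta chain, which in mice is needed to bring the receptor to the cell surface. It read -8.11, -8.12 and -8.90 in the arrays labelled knockout, against -4.74, -4.61, -4.03 and -4.70 in the controls. No array labelled knockout measured the beta chain above background, and all 4 controls did. Control replicate 3 was the brightest. Its raw mean in the arrays labelled knockout was -8.38 ± 0.45 (SD, n = 3), against -4.52 ± 0.33 (SD, n = 4) in the controls. With dim values raised to each array's own floor, Ms4a2 was 4.38-fold lower in the arrays labelled knockout. The limma adjusted p of 0.000174 belongs to the values without a floor. In the arrays labelled knockout those are not measured levels, so this p does not measure the 4.38-fold difference. Here and for Cd200r3, values under the dimmest single spot that counts as well above background were raised to it. Some probes read above that floor without counting as well above background, so the fold is not a strict lower limit. With the common floor, which lies only a little under the control values, the difference was 1.75-fold and the call was lost (limma adjusted p = 0.0992). With normexp background correction the log2 fold change was -1.56, a smaller difference than with each array's own floor (limma adjusted p = 0.000511).

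Fcer1g, the gamma chain, was far above background on every array of both groups. It read 6.26, 5.52 and 5.98 in the arrays labelled knockout, against 6.00, 6.13, 6.19 and 5.98 in the controls. The highest and the lowest of the 7 values both came from arrays labelled knockout, so that the control range lay inside that of the other group. The log2 fold change was -0.15 (SE 0.18, 95% interval -0.58 to 0.27, limma adjusted p = 0.780). The interval leaves room for a modest difference either way, and excludes one of the size seen for the other chains. The gamma chain spots were not saturated on any array.

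**Figure D2:**
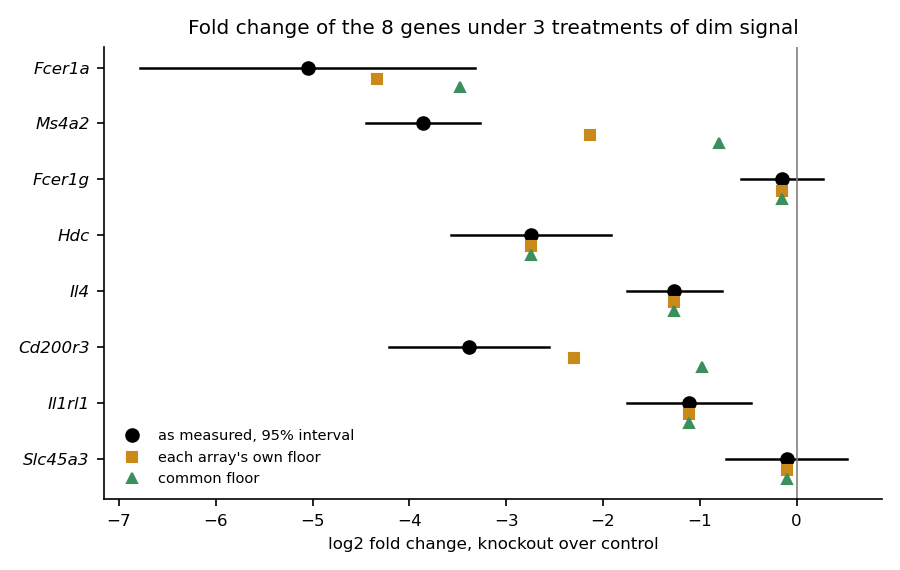
Log2 fold change of each of the 8 genes, arrays labelled knockout over controls, as measured (circles with 95% intervals of the limma fit), with dim values raised to each array's own floor (squares) and to a common floor (triangles). Ms4a2 and Cd200r3, dim in the arrays labelled knockout, shrink most under the floors, and Fcer1g and Slc45a3 lie near 0.

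Cd200r3 is a member of the CD200 receptor family which in mice is found on mast cells and basophils and passes activating signals through a partner adaptor. It read -8.0, -7.07 and -8.14 in the arrays labelled knockout, against -4.69, -4.70, -4.50 and -3.52 in the controls. Control replicate 4 stood above the other controls, and the groups lay apart. As for the beta chain, the probe was above background on all 4 controls and on none of the arrays labelled knockout. The raw mean of Cd200r3 in the arrays labelled knockout was -7.74 ± 0.58 (SD, n = 3), against -4.35 ± 0.56 (SD, n = 4) in the controls. With each array's own floor Cd200r3 was 4.93-fold lower in the arrays labelled knockout. The limma adjusted p of 0.00185 belongs to the values without a floor, and does not measure the 4.93-fold difference either. With the common floor it was 1.96-fold lower and no longer passed (limma adjusted p = 0.209). With normexp its log2 fold change was -1.43, again a smaller difference than with each array's own floor (limma adjusted p = 0.00238).

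Il1rl1 encodes ST2, the receptor chain that binds interleukin 33 on mast cells, basophils and type 2 lymphoid cells. Its brightest probe read -2.97, -2.35 and -2.81 in the arrays labelled knockout, against -2.09, -1.07, -1.92 and -1.31 in the controls. The groups lay apart by 0.26 log2 units, less than the SD within either of them. In the arrays labelled knockout it averaged -2.71 ± 0.32 (SD, n = 3), against -1.60 ± 0.49 (SD, n = 4) in the controls. With a log2 fold change of -1.11 (SE 0.28, 95% interval -1.75 to -0.47), Il1rl1 did not pass the threshold (limma adjusted p = 0.0968). It passed with normexp background correction (limma adjusted p = 0.0318), without a filter on dim probes (0.0428) and with array weights (0.0487). Without that filter and with array weights, the number of calls over all genes rose as well. Over all alternatives, which include reading the gene from another of its probes, the adjusted p of Il1rl1 ran between 0.0318 and 0.700. A second probe, annotated to another transcript of the gene, read -8.25, -5.69 and -5.99 in the arrays labelled knockout, against -4.66, -5.38, -7.52 and -5.33 in the controls, and its groups overlapped. That probe was well above background on 2 of the 3 arrays labelled knockout and on 1 of the 4 controls (log2 fold change -0.92, SE 0.81, limma adjusted p = 0.730 when fitted on its own). The remaining probe, annotated to the same transcript as the brightest, was at background on all 7 arrays. The soluble and membrane forms of the receptor come from different transcripts, and which form each probe reads was not tested.

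Hdc encodes histidine decarboxylase, the enzyme that makes histamine. It read -2.36, -4.05 and -2.88 in the arrays labelled knockout, against -0.46, -0.21, -0.59 and -0.14 in the controls. All 7 values were well above background, so that this difference does not rest on a floor. Replicate 2 labelled knockout was again the lowest array. Hdc in the arrays labelled knockout averaged -3.10 ± 0.87 (SD, n = 3), against -0.35 ± 0.21 (SD, n = 4) in the controls, with the nearest arrays 1.76 log2 units apart. It was 6.71-fold lower in the arrays labelled knockout (log2 fold change -2.75, SE 0.36, 95% interval -3.57 to -1.92, limma adjusted p = 0.00539).

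The arrays fell in the same order for Hdc as for Fcer1a. In both genes replicate 1 was the highest and replicate 2 the lowest of the arrays labelled knockout, and control replicate 4 was the highest and control replicate 3 the lowest of the controls. Over the 7 arrays the log2 values of Hdc and Fcer1a had a Pearson correlation of 0.997. It is given as a description, since the 2 groups lie apart and the arrays share their scaling. The Fcer1a value of replicate 2 labelled knockout, -8.99, lay under the floor of its array and is not a measured level. That value enters this correlation and those that follow. Among genes outside the 8, the values most like those of Fcer1a over the 7 arrays were those of Fbxo31 (Pearson r = 0.990), S100a1 (0.983), Gdf15 (0.978), Ethe1 (0.978) and Tmem107 (0.977). Of these only Gdf15, a stress-induced cytokine of the TGF-beta family, passed the test, with a log2 fold change of -1.92 (limma adjusted p = 0.00806). It read -3.34, -4.35 and -3.49 in the arrays labelled knockout, against -1.99, -1.36, -2.03 and -1.84 in the controls. Fbxo31, an F-box protein of a ubiquitin ligase, had a log2 fold change of only -0.37 (limma adjusted p = 0.219). Its controls did not follow the order of Fcer1a.

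Il4 encodes interleukin 4, which directs immunoglobulin class switching to IgE and which basophils and mast cells make beside T helper cells. Its probe is printed 10 times on the array, and the spot means were -4.97, -4.54 and -5.09 in the arrays labelled knockout, against -3.76, -3.26, -3.97 and -3.43 in the controls. The groups lay 0.57 log2 units apart. The spots of 1 array scattered with an SD between 0.183 and 0.235 in the arrays labelled knockout and between 0.105 and 0.150 in the controls, which is smaller than the gap. The highest spot of any array labelled knockout, at -4.25, lay below the lowest control spot, at -4.16. As 3 control spots were flagged as outliers, 8 spots were used on control replicate 1 and 9 on control replicate 3. Il4 in the arrays labelled knockout averaged -4.87 ± 0.29 (SD, n = 3), against -3.60 ± 0.32 (SD, n = 4) in the controls, and every array measured it above background. It was 2.40-fold lower in the arrays labelled knockout (log2 fold change -1.26, SE 0.21, 95% interval -1.75 to -0.77, limma adjusted p = 0.0181). The call was lost without replicate 1 labelled knockout (limma adjusted p = 0.0785), without replicate 3 of that group (0.0917) and without control replicate 4 (0.0511). Spots of 1 array share its RNA and are not replicates of the condition.

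**Figure D3:**
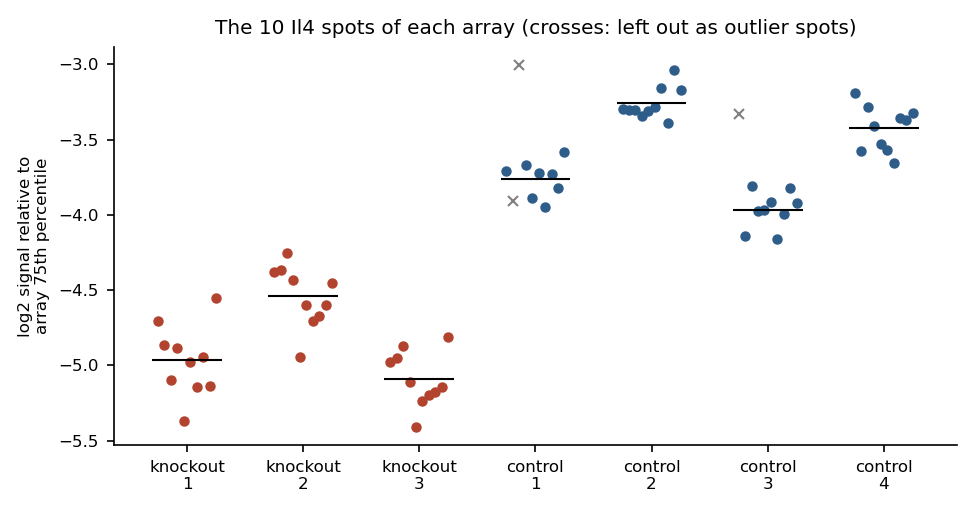
Log2 signal of the Il4 spots used on each array (points), relative to the array's 75th percentile, with the array mean as a bar and the arrays labelled knockout left of the controls. Crosses are spots left out as outliers, the brightest of them at -3.01 on control replicate 1. Spots of the arrays labelled knockout reach down to -5.41, and the brightest control spot used lies at -3.04.

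Slc45a3, also called prostein, is a membrane transporter best known from the prostate. Its brightest probe read 4.62, 3.85 and 3.90 in the arrays labelled knockout, against 4.33, 4.35, 4.57 and 3.65 in the controls. The groups overlapped, with control replicate 4 the lowest and replicate 1 labelled knockout the highest of the 7 arrays. In the arrays labelled knockout it averaged 4.12 ± 0.43 (SD, n = 3), against 4.23 ± 0.40 (SD, n = 4) in the controls (log2 fold change -0.10, SE 0.27, 95% interval -0.72 to 0.52, limma adjusted p = 0.916). A second probe, for another transcript, was well above background only on replicate 1 labelled knockout, at -4.71, and was not tested. In the family of related solute carriers, 1 of 3 genes was tested, Slc45a4, with a log2 fold change of 0.35 (limma adjusted p = 0.456).

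**Figure D4:**
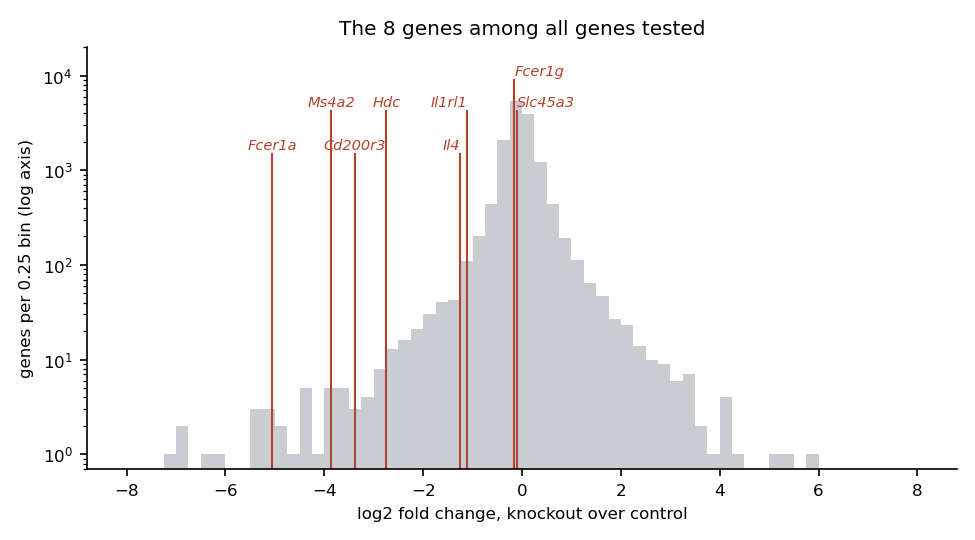
Number of the 14539 tested genes in each bin of log2 fold change, arrays labelled knockout over controls (log count axis), with the 8 genes as vertical lines. The lines of 4 genes, Fcer1a, Ms4a2, Cd200r3 and Hdc, lie beyond -2, and those of Fcer1g and Slc45a3 lie in the bulk near 0.

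The signalling genes that act downstream of the receptor, such as Lyn, Syk, Lat and Btk, did not pass the test in either direction: 0 of 24 were lower and 0 higher, with a median log2 fold change of -0.04 against -0.05 over all genes. Plcg1, a phospholipase that acts below the receptor, had a log2 fold change of 0.69 (limma adjusted p = 0.111). Of 10 receptor genes listed as partners of the gamma chain, 1 was lower and 0 higher, 9 had a negative log2 fold change, and the median was -0.80. The one that passed was Clec4d, a C-type lectin of myeloid cells, which was 2.23-fold lower (log2 fold change -1.16, SE 0.22, limma adjusted p = 0.0287). Its call was lost in 6 of 7 fits that left out 1 array, staying only without control replicate 4, and with the common floor, and over all alternatives its adjusted p ran between 0.0107 and 0.126. The IgG receptors had log2 fold changes of -1.04 for Fcgr1 (limma adjusted p = 0.308), -0.84 for Fcgr3 (0.110) and -0.77 for Fcgr4 (0.0543), which use the gamma chain. The inhibitory Fcgr2b, which does not, stood at -0.59 (limma adjusted p = 0.0739). Fcgr4 passed under 6 of 20 alternatives, Fcgr2b under 5 and Fcgr3 under 3, lower each time.

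Of the genes that handle histamine, the partners Slc18a2, Hnmt and Hrh4 were followed. Slc18a2, the vesicular transporter that loads amines into granules, read -2.96, -3.58 and -3.37 in the arrays labelled knockout, against -0.66, -0.22, -0.53 and -0.70 in the controls. It was 6.86-fold lower (log2 fold change -2.78, SE 0.19, limma adjusted p = 0.000186). Hnmt, which inactivates histamine by methylation, read -3.38, -2.59 and -3.27 in the arrays labelled knockout, against -1.67, -1.44, -1.17 and -1.49 in the controls. It was 3.11-fold lower (log2 fold change -1.64, SE 0.22, limma adjusted p = 0.00569). The groups lay apart for both genes, while Hrh4, a histamine receptor, had overlapping groups and a log2 fold change of -0.12 (limma adjusted p = 0.907).

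In the list of other mediators and their synthesis, 18 of 26 genes were tested, of which 4 were lower, 0 higher and the median was -0.20. Beside Slc18a2 and Hnmt these were Il6, an inflammatory cytokine (3.50-fold lower, limma adjusted p = 0.0467), and Ccl9, a chemokine of myeloid cells (1.79-fold lower, limma adjusted p = 0.0258). The Il6 call was lost in 7 of 7 fits that left out 1 array, where its adjusted p ran between 0.0502 and 0.113. The Ccl9 call was lost without replicate 1 or 3 labelled knockout and without control replicate 3 or 4. Il13 and Il5, which lie in the cytokine cluster of Il4, were at background on all 7 arrays and could not be compared. In the list of that cluster and the type 2 receptors, 10 of 12 genes were tested, 0 lower and 1 higher, with a median of 0.07. The higher one was Kif3a, a kinesin gene that neighbours the cluster (1.64-fold higher, limma adjusted p = 0.0372), whose call held only without control replicate 2 among the 7 fits that left out 1 array.

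Il1rap, the chain that joins Il1rl1 in the interleukin 33 receptor, had a log2 fold change of -0.23 (SE 0.29, limma adjusted p = 0.798), and its groups overlapped. The ligand gene Il33 was at background on all 7 arrays. In the list of that receptor family and its signalling, 10 of 12 genes were tested, 2 of them higher and 0 lower, with a median of -0.05. Il18r1, the binding chain of the interleukin 18 receptor, was 4.48-fold higher in the arrays labelled knockout (log2 fold change 2.16, limma adjusted p = 0.000174). It read 0.02, -0.28 and -0.10 in the arrays labelled knockout, against -2.20, -2.21, -2.52 and -2.20 in the controls. Il1r1, the interleukin 1 receptor, was 1.95-fold higher (limma adjusted p = 0.0335), a call that held only without replicate 2 labelled knockout among the 7 fits that left out 1 array. The log2 fold changes of Il18r1 and Il1r1 were opposite in sign to that of their relative Il1rl1, which did not pass.

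Of the Cd200r3 family, the inhibitory receptor Cd200r1 was 2.65-fold lower in the arrays labelled knockout (log2 fold change -1.40, limma adjusted p = 0.00693). It read -2.90, -2.63 and -3.07 in the arrays labelled knockout, against -1.37, -1.24, -1.34 and -1.90 in the controls, and the groups lay apart. The ligand gene Cd200 had a log2 fold change of -0.21 (limma adjusted p = 0.906). Cd200r4 did not count as well above background on any array and was not tested. It read -7.41, -6.99 and -8.13 in the arrays labelled knockout, against -5.41, -5.68, -6.10 and -5.34 in the controls. Most of these values lay under the floors. In the list of other mast cell and basophil surface receptors, 21 of 28 genes were tested, 2 of them lower and 1 higher, with a median of -0.22. The lower ones were Cd200r1 and Cd63, a tetraspanin of granule membranes that marks degranulation (3.82-fold lower, limma adjusted p = 0.000442), and the higher one was Il18r1, which stands in both lists. Kit, the stem cell factor receptor of mast cells, singled out after its values were seen, had a log2 fold change of -0.20 (limma adjusted p = 0.688). Of the transcription factors of these cells 13 of 14 were tested, with 1 lower, 1 higher and a median of -0.29. The higher one was Gata2 itself, and the lower one was Tfec, a relative of Mitf (2.53-fold lower, log2 fold change -1.34, limma adjusted p = 0.00105).

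**Figure D5:**
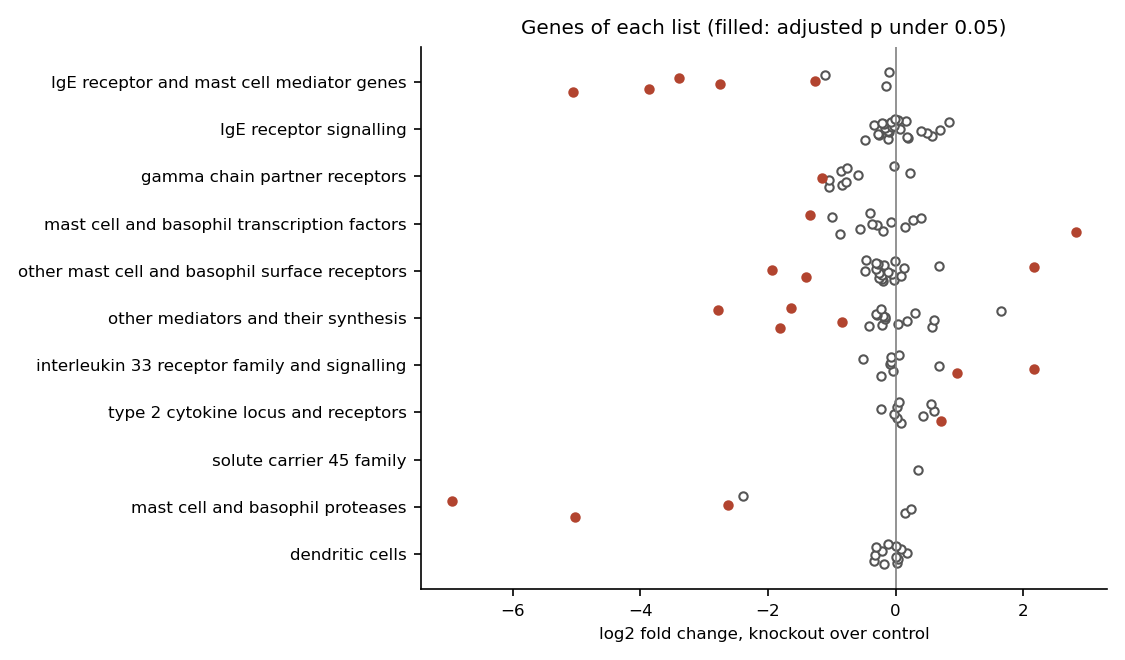
Log2 fold change of each tested gene, arrays labelled knockout over controls, by list, with filled points for an adjusted p under 0.05 and open points for the others. The 24 signalling genes and the 12 dendritic cell markers hold no filled point, while 5 of the 8 IgE receptor and mediator genes and 3 of the 6 tested proteases are filled and lower.

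Markers of other cells moved beside these genes. Of the 10 proteases of mast cells and basophils listed, 6 were tested and 3 were lower, with a summed level between 0.707 and 0.862 times the array's 75th percentile in the arrays labelled knockout and between 8.87 and 20.8 times in the controls. They were Prss34, 123-fold lower (limma adjusted p = 0.000174), Cpa3, 32.5-fold lower (0.000114), and Mcpt8, 6.16-fold lower (0.000263). Prss34 and Mcpt8 are basophil proteases in mice, and Cpa3 is made by mast cells and basophils. The proteases Cma1, Mcpt1 and Mcpt2 of mast cells were not tested, being above background on fewer than 3 arrays. The other 3 tested did not pass: Gzmb, a granzyme, had a log2 fold change of -2.39 (limma adjusted p = 0.233), and the mast cell proteases Tpsb2 and Mcpt4 stood at 0.15 (0.740) and 0.24 (0.625). Mcpt4 was above background on none of the controls, and its sign turned with normexp (-0.10) and with each array's own floor (-0.40). Of 7 eosinophil markers tested 3 were lower (summed level 0.643 to 0.749 in the arrays labelled knockout and 1.14 to 1.83 in the controls), of 6 platelet markers 3 (26.1 to 32.3 and 44.6 to 70.7), and of 4 monocyte markers 3 (38.4 to 49.4 and 54.1 to 69.6). Of 7 T cell markers 2 were higher (7.62 to 8.85 in the arrays labelled knockout and 5.26 to 6.11 in the controls). The other 5 did not pass, and the median log2 fold change of the 7 was 0.05. Each sum weighs its brightest genes most, and the brightest monocyte marker did not pass (limma adjusted p = 0.472). The summed level of the 12 dendritic cell markers ranged from 296 to 349 in the arrays labelled knockout and from 321 to 379 in the controls. The part of these cells in the differences of the 8 genes was not tested.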

How the data were processed

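RNA of cultured mouse dendritic cells was measured on 7 one-colour Agilent arrays. The authors deposited spot intensities from the scanner, including a processed signal with background subtracted, which the file headers credit to Feature Extraction 10.7.3.1 of Agilent. The deposited series table holds log2 values; by comparison with the scanner files they run the same way on the same scale, each probe centred over the arrays, with column medians of 0 except -0.02 for replicate 3 labelled knockout. It was used as an alternative.

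Processed signals were put on a log2 scale and centred on the 75th percentile of an array's gene spots. Spots flagged as outliers were dropped, and repeated spots of a probe averaged. A probe was kept if 3 or more of the 7 arrays measured it well above background (34085 probes). Of 33064 probes with a RefSeq accession, 26413 were named through a GRCm38.p6 table. A gene was read from its kept probe of highest mean signal. The 2 groups entered limma 3.58.1 (lmFit and eBayes, R 4.3.3) with no block, Benjamini-Hochberg adjustment and a threshold of 0.05, and the fit was tested on simulated data. The 3 replicate numbers found in both groups were not treated as pairs, since the labels do not say that a number is shared. Deviations of same-numbered arrays correlated at -0.10, -0.17 and -0.05, and those of other pairs between -0.20 and 0.23, which cannot decide it. Alternatives covered background correction, normalization, filters, floors, outlier spots, weights, the variance model, the probe rule, the threshold, a block for the replicate number and leaving out single arrays. Normexp (offset 50) used the median signal. The 8 genes and the gene lists were chosen with earlier results of these data known. Named are all 8 genes with every probe, Gata2, their partners, up to 4 genes per direction past the threshold in each list or up to 2 as values, and the 5 genes most correlated with Fcer1a. Gzmb, Tpsb2 and Mcpt4 were added after their values were seen. One gene that the rule takes is left out of the text. Precision is limited by the number of arrays.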

Additional observations from a re-analysis of the deposited data

Results flagged for a closer look

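One set of values stood out among the control arrays of the 42 probes examined. Control replicate 3 of Il18r1 read -2.52, away from the other controls, of which the highest read -2.20. Its gap to the nearest other control was 0.952 of the range of that group, past the critical value of Dixon's test for 4 samples. Chance flags about 1 in 20 such groups. The log2 fold change of Il18r1 lay between 2.08 and 2.24 over the fits that left out 1 array.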

How the results depend on the processing

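Of the 5 calls among the 8 genes, 2 remained when a probe had to be well above background on all 7 arrays (Hdc and Il4, of 5 genes still tested). With the common floor 3 remained (Fcer1a, Hdc and Il4). Between 4 and 5 remained over the fits that left out 1 array. With the replicate number as a block, which leaves out control replicate 4, 3 were called (Cd200r3, Il4 and Ms4a2), and the block gave 194 calls over all genes. Fcer1a and Hdc were not called there (limma adjusted p = 0.0642 and 0.0561). The labels do not say whether a replicate number is shared between the groups. With normexp background correction the log2 fold changes of Fcer1a, Ms4a2 and Cd200r3 were -3.05, -1.56 and -1.43. Over all genes, 421 calls became 2848 without a filter on dim probes, 757 with array weights and 209 at an adjusted p under 0.01, and between 193 and 406 without 1 array each, the lowest without replicate 3 labelled knockout (193) and replicate 1 (243). Of all calls 48.0% were lower, against 87.2% without a filter and 59.3% with normexp. Signs that turned were all of values that did not pass. Fcer1g stood at 0.053 with quantile normalization and between -0.32 and 0.046 without 1 array each. Likewise Slc45a3 ranged between -0.35 and 0.034, Cd200 between -0.81 and 0.34, Il1rap between -0.52 and 0.10 and Hrh4 between -0.43 and 0.058, with 0.051 for Hrh4 with the replicate block. Mcpt4 stood at -0.10 with normexp and at -0.40 with each array's own floor. The causes were not tested. No other sign of the 41 named genes turned under the alternatives run. Signal over background limits Ms4a2, Cd200r3 and the dimmer probes of Il1rl1 and Slc45a3.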
